A study of Mus musculus with 6 samples.

Results

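The genes described here encode the proteins of the cytosolic ribosome in mouse embryonic stem (ES) cells. They were chosen by name alone, as every gene of the deposited count table whose symbol is Rpl or Rps followed by a number and at most one of the letters a, l, x or (for Rps) y, together with Rplp0, Rplp1, Rplp2 and Rpsa. The rule found 81 of the 23999 rows of the table, 32 for the small subunit and 49 for the large subunit, and all 81 were among the 14458 genes with enough counts to be tested. The study, whose title concerns an enhancer of Nanog, measured polyadenylated RNA by sequencing. Cells of one group received hydroxytamoxifen (4OHT) for 6 days (n = 3 libraries), and control cells received the ethanol vehicle for 6 days (n = 3 libraries). Both groups carried the same floxed -5 region and an exogenous, V5-tagged mouse Nanog. The labels used here name no Cre driver and do not say whether the line was 1 clone or whether replicates came from separate cultures, so p-values measure only the spread between these samples.

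Each cytosolic ribosome joins a small (40S) and a large (60S) subunit, and most of the proteins in both are made from single functional genes scattered over the genome. Many of their mRNAs begin with a run of pyrimidines, the 5′ terminal oligopyrimidine (TOP) tract, through which the mTOR kinase and the RNA-binding protein LARP1 control their translation. A few proteins have a second gene, a paralogue such as Rpl39l or Rpl10l, that is best known for its activity in the testis.

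The libraries held between 515388 and 55194644 counts. 4OHT replicate 2 was the shallow one at 515388 counts, where 1 read was worth 1.91 CPM (counts scaled to library size), and the ribosomal protein genes had a median of 271 reads there. Nanog averaged 181 ± 11.5 CPM in 4OHT libraries and 644 ± 14.5 CPM in vehicle libraries (SD, n = 3 each), a log2 fold change of -1.81 with an edgeR adjusted p of 1.6e-13. These counts may include reads of the exogenous Nanog that both groups carried, so they do not measure the endogenous gene alone. The 8 ES cell markers summed to between 6535 and 6772 CPM in 4OHT libraries and between 6750 and 6837 CPM in vehicle libraries, and 1 rose and 1 fell, so the labelled cell type carried its markers in every library. The 8 primitive endoderm markers summed to between 46.6 and 63.5 CPM in 4OHT libraries and between 6.93 and 8.04 CPM in vehicle libraries, and all 8 rose. In the shallow 4OHT replicate 2, however, Gata4, Sox17 and Sox7 had 0 reads, and Cubn had the most with 12. The 7 markers of two-cell-like cells summed to between 21.5 and 23.3 CPM in 4OHT libraries and between 7.77 and 7.94 CPM in vehicle libraries, and all 7 rose. Zscan4f had 0 reads in 4OHT replicate 2. Of 6 fibroblast feeder markers 3 could be tested, the 6 summed to between 8.03 and 9.70 CPM in 4OHT libraries and between 17.6 and 18.4 CPM in vehicle libraries, and Postn was at 0 in every library. Only Thy1 of the 3 fell, with 325, 4 and 197 reads in 4OHT libraries and 819, 314 and 432 reads in vehicle libraries, while Col1a1 had 92, 1 and 60 reads in 4OHT libraries and 91, 32 and 44 reads in vehicle libraries. The part of these other cell types in the results below was not tested.

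Ribosomal protein mRNAs differed little between the groups. Of the 81 genes, 1 rose (Rpl39l), 1 fell (Rpl39) and 79 did not pass the test (edgeR quasi-likelihood test, Benjamini-Hochberg adjusted p of at most 0.05 over all tested genes). That is 1.23% in each direction, where 22.4% of all tested genes were called, 11.9% higher and 10.5% lower. Among the 2402 tested genes with a mean of at least 100 CPM, a level that 78 of the 81 genes reached, 14.2% were called higher and 6.7% lower; this comparison set was chosen after the values were seen. The 95% interval of the fold change lay within 1.5-fold either way for 80 of the 81 genes, against 71.4% of all tested genes and 96.1% of those with a mean of at least 100 CPM. It lay within 1.2-fold for 69 of the 81, against 4566 of all 14458 tested genes and 1617 of the 2402 with a mean of at least 100 CPM. In RNA from whole cultures, fewer cells of a type and less RNA per cell cannot be told apart.

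The small differences leaned to one side. The log2 fold change was below 0 for 63 of the 81 genes (77.8%, against 50.7% of all tested genes), with a median of -0.07 (all tested genes -0.00) and a range of -0.20 for Rps14 to 0.27 for Rpl3l. All 4OHT libraries lay below all vehicle libraries in 17 genes and above them in 2, where 16.5% of all tested genes lay below and 14.7% above. All 19 of these genes encode large subunit proteins, where the set holds 49 large and 32 small subunit genes. This count by subunit was not tested. The 2 above were Rpl39l and Rpl3l, and Rpl3l had only 1 read in 4OHT replicate 2. Comparing libraries with the same replicate number, 39 genes were lower in 4OHT in all 3 pairs and 9 were higher in all 3, where 26% of all tested genes were lower and 21.3% higher in all 3. With the replicate number as a block in the fit, 2 genes rose (Rpl39l and Rps12) and 15 fell, or 2.47% and 18.5% of the 81, where 28.2% of all tested genes were called, 14.6% higher and 13.5% lower. The 15 were Rpl11, Rpl12, Rpl13, Rpl13a, Rpl19, Rpl22, Rpl30, Rpl31, Rpl36a, Rpl37a, Rpl39, Rps14, Rps21, Rps27a and Rps27l. Without the shallow 4OHT replicate 2 the blocked fit called 1 higher and 8 lower, an alternative chosen after seeing the data. Without 4OHT replicate 1, the median over the 81 genes was -0.00.

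**Figure D1:**
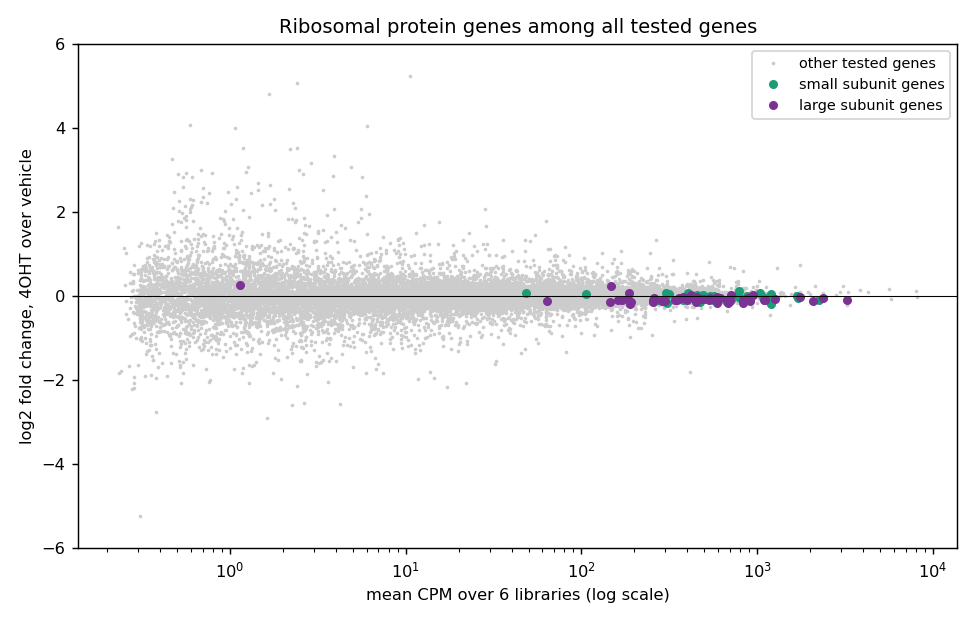
Each point is a tested gene, with its mean CPM over the 6 libraries on a log axis and its log2 fold change of 4OHT over vehicle on the other axis. The 81 ribosomal protein genes (green, small subunit; purple, large subunit) lie between -0.20 and 0.27, and 78 of them have a mean of at least 100 CPM.

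Their summed share of each library showed the same small difference. In 4OHT replicates 1, 2 and 3 the 81 genes took 5.03%, 5.49% and 5.49% of all counts, and in vehicle replicates 1, 2 and 3 they took 5.39%, 5.65% and 5.75%. The groups overlapped, since vehicle replicate 1 lay below 4OHT replicates 2 and 3, while each 4OHT library was below the vehicle library of the same number. The means were 5.34% ± 0.267 in 4OHT and 5.59% ± 0.186 in vehicle (SD, n = 3 each), a difference of -0.259 percentage points (exact 2-sided permutation test, p = 0.3, where the smallest p the design allows is 0.1). Without 4OHT replicate 1 the difference was -0.105 percentage points. The 32 small subunit genes took 2.09%, 2.37% and 2.38% in 4OHT libraries and 2.22%, 2.40% and 2.43% in vehicle libraries (exact permutation p = 0.5), and again the groups overlapped. The 49 large subunit genes took 2.94%, 3.12% and 3.11% in 4OHT libraries and 3.16%, 3.24% and 3.32% in vehicle libraries. Here every 4OHT library lay below every vehicle library, a difference of -0.189 percentage points with the smallest exact permutation p possible, 0.1. The ratio of the large subunit sum to the small subunit sum was 1.403, 1.314 and 1.308 in 4OHT libraries and 1.423, 1.350 and 1.370 in vehicle libraries, and overlapped between the groups (exact permutation p = 0.3).

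**Figure D2:**
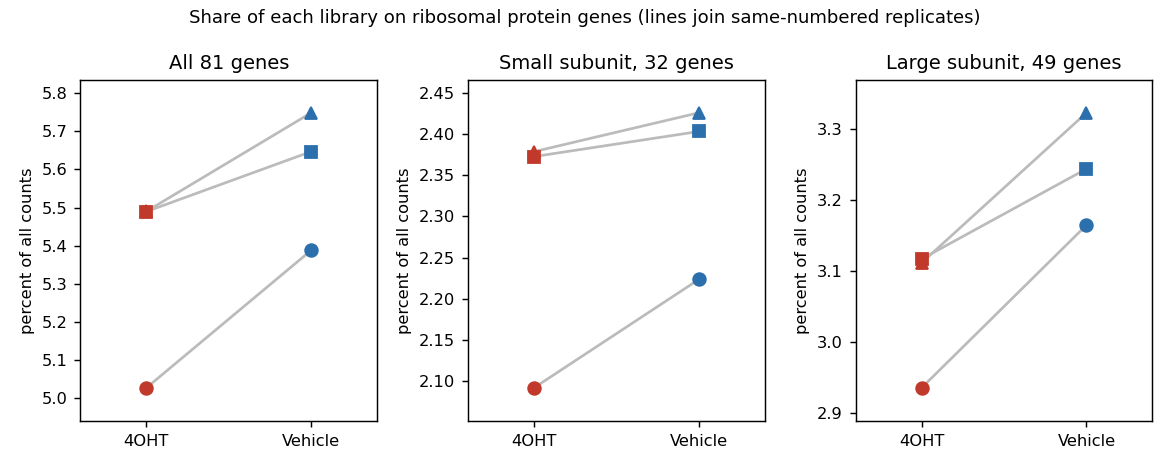
The panels show the percent of all counts in each library on the 81 genes, the 32 small subunit genes and the 49 large subunit genes, with grey lines joining libraries of the same replicate number; the vertical axes do not start at 0. Every line is lower at its 4OHT end, and the groups are apart only for the large subunit, at 2.94% to 3.12% in 4OHT and 3.16% to 3.32% in vehicle.

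The 2 genes that passed are paralogues of each other and moved in opposite directions. Rpl39 encodes a very small protein that lines the exit tunnel of the large subunit, and Rpl39l encodes its close relative. Their coding sequences are 153 bases long each and differ at 23 positions (85.0% identity), with a longest identical stretch of 38 bases. They are printed from the GENCODE mouse transcripts, 5′ to 3′, with the differing bases in capitals, to show how far reads from one can be told from reads from the other.
Rpl39: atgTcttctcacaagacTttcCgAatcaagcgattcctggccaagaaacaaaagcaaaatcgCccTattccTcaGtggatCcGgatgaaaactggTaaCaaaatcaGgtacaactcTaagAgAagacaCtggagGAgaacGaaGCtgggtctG
Rpl39l: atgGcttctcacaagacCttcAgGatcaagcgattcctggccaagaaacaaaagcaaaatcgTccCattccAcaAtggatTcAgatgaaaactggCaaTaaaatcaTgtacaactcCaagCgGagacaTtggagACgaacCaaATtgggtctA

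Rpl39l had 148, 168 and 166 CPM in 4OHT replicates 1, 2 and 3, and 125, 137 and 141 CPM in vehicle replicates 1, 2 and 3. Every 4OHT library lay above every vehicle library, at means of 161 ± 11.1 CPM in 4OHT and 134 ± 8.36 CPM in vehicle (SD, n = 3 each). It rose by 0.24 on the log2 scale (SE 0.07, with a 95% interval of 0.10 to 0.37) at an edgeR adjusted p of 0.0147. Rpl39 had 169, 187 and 182 CPM in 4OHT libraries and 193, 205 and 204 CPM in vehicle libraries. Every 4OHT library lay below every vehicle library, at means of 179 ± 9.59 CPM in 4OHT and 201 ± 6.65 CPM in vehicle. It fell by 0.19 on the log2 scale (SE 0.06, with a 95% interval of -0.31 to -0.06) at an edgeR adjusted p of 0.0313. Both calls rest on small differences and were lost under some settings: DESeq2 gave adjusted p-values of 0.0933 for Rpl39l and 0.123 for Rpl39. Over all alternatives the adjusted p of Rpl39l ran from 1.22e-07 to 0.104, and that of Rpl39 from 0.00353 to 0.126. Rpl39l missed the threshold without 4OHT replicate 3 (0.0565) or vehicle replicate 1 (0.104), and Rpl39 without 4OHT replicate 1 (0.102), vehicle replicate 2 (0.126) or vehicle replicate 3 (0.1247).

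The ratio of Rpl39l to Rpl39 reads within a library needs no scaling between libraries, but the limit of the Rpl39 counts given above holds for it too. It was 0.877, 0.898 and 0.912 in 4OHT libraries and 0.646, 0.668 and 0.690 in vehicle libraries, 1.34-fold higher in 4OHT. The 2 groups lay well apart relative to their spread (SD 0.0174 in 4OHT and 0.0218 in vehicle). The exact permutation p was 0.1, the smallest possible, or 0.175 after adjustment over the 7 ratios computed. Every 4OHT library was higher for Rpl39l and lower for Rpl39 than every vehicle library. The ratio therefore had to separate the groups at this p, and it is not a further test of the pair. The ratios were chosen after these values were seen.

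Rps27 and Rps27l, a pair of small subunit paralogues of which Rps27l is known as a p53 target, differ at 60 of 252 coding bases (76.2% identity), and no identical stretch is longer than 11 bases. They are shown for the same reason, with the differing bases in capitals.
Rps27: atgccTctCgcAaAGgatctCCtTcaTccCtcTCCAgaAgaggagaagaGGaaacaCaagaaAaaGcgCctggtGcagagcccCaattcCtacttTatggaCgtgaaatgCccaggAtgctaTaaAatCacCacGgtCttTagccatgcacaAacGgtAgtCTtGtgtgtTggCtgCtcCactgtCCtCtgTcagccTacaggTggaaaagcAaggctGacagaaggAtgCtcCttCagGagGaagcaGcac
Rps27l: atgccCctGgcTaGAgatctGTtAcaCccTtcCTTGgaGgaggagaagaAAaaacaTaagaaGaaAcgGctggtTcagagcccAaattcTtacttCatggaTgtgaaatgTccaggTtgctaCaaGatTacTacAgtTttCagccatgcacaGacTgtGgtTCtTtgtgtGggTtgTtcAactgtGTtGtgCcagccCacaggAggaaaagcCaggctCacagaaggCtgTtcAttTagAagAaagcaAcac

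Rps27l had 273, 283 and 313 CPM in 4OHT libraries and 288, 341 and 345 CPM in vehicle libraries, a log2 difference of -0.16 that did not pass (edgeR adjusted p = 0.148 without the replicate block and 0.0286 with it). Rps27 had 403, 397 and 439 CPM in 4OHT libraries and 367, 397 and 425 CPM in vehicle libraries, with overlapping groups and a log2 fold change of 0.07. The Rps27l to Rps27 ratio was 0.677, 0.712 and 0.713 in 4OHT libraries and 0.783, 0.860 and 0.813 in vehicle libraries. The groups did not overlap (fold 0.856, exact permutation p = 0.1, adjusted 0.175). The Rps27 row has a limit of its own: a second row, Rps27rt, carried between 99.72% and 100% as many counts as Rps27 in each library.

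The other paralogues were less distinct. Rpl22l1, which the name rule does not cover, had 91.7, 89.7 and 116 CPM in 4OHT libraries and 85.1, 95.2 and 97.8 CPM in vehicle libraries (edgeR adjusted p = 0.216). Its ratio to Rpl22, whose RNA-binding protein lies in the large subunit, was 0.152, 0.145 and 0.169 in 4OHT libraries and 0.130, 0.129 and 0.129 in vehicle libraries, with no overlap (1.205-fold, exact permutation p = 0.1, adjusted 0.175). The ratio of Rpl10l to Rpl10 overlapped between the groups (exact permutation p = 0.7), as did that of Rps4l to Rps4x (exact permutation p = 0.4). Rpl3l, the striated muscle paralogue of Rpl3, was near the floor: it had 57, 1 and 36 reads in 4OHT libraries and 49, 19 and 23 reads in vehicle libraries, so its 4OHT replicate 2 value of 1.91 CPM is a single read. Of the 6 paralogue ratios 4 had groups apart, that of Rpl3l to Rpl3 included. The 4 also include Rpl39l to Rpl39, whose separation follows from its single genes. No share over other gene pairs was computed, so the count is not read as a result about paralogues. Among single genes, 16.5% of all tested genes had all 4OHT libraries below all vehicle libraries and 14.7% above.

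**Figure D3:**
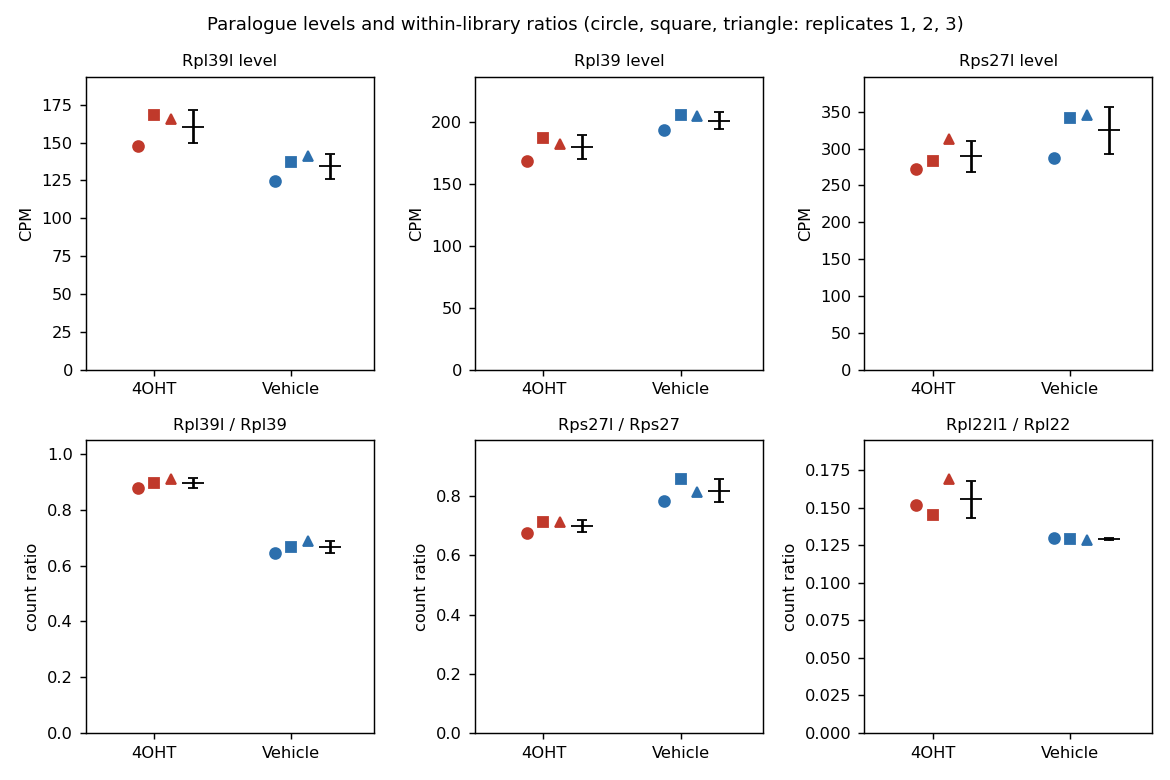
The upper panels give the CPM of Rpl39l, Rpl39 and Rps27l and the lower panels 3 within-library count ratios; circles, squares and triangles are replicates 1, 2 and 3, and bars give the mean and SD. The Rpl39l to Rpl39 ratio sits at 0.877 to 0.912 in 4OHT libraries, above 0.646 to 0.690 in vehicle libraries.

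Among the other large subunit genes, 5 had adjusted p-values between 0.05 and 0.1, all of them lower in 4OHT, and passed once the replicate block was in the fit. Rpl37a, next to the threshold, had 539, 542 and 591 CPM in 4OHT libraries and 596, 626 and 659 CPM in vehicle libraries. Every 4OHT library was below every vehicle library, at a log2 difference of -0.16 (edgeR adjusted p = 0.0688 without the block and 0.00315 with it). Rpl13 had 740, 768 and 839 CPM in 4OHT libraries and 864, 886 and 875 CPM in vehicle libraries, again without overlap (edgeR adjusted p = 0.0702). Rpl22 had 603, 619 and 686 CPM in 4OHT libraries and 656, 739 and 760 CPM in vehicle libraries (edgeR adjusted p = 0.0848), and here vehicle replicate 1 lay below 4OHT replicate 3. Rpl19 and Rpl11 gave edgeR adjusted p-values of 0.0929 and 0.0979. Rpl11 and Rpl5 form, with 5S rRNA, the particle that can bind and inhibit MDM2. Rpl11 had 251, 250 and 228 CPM in 4OHT libraries and 265, 254 and 283 CPM in vehicle libraries. Rpl5 had 283, 256 and 273 CPM in 4OHT libraries and 293, 305 and 303 CPM in vehicle libraries, a log2 difference of -0.13 (edgeR adjusted p = 0.133 without the block and 0.0571 with it). Both had all 4OHT libraries below all vehicle libraries; Rpl11 passed with the block and Rpl5 with neither fit.

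The stalk proteins, which recruit elongation factors to the large subunit, did not pass. Rplp0 had 1141, 1138 and 1397 CPM in 4OHT libraries and 1232, 1311 and 1341 CPM in vehicle libraries (log2 fold change -0.07). Rplp1 had 931, 1086 and 1149 CPM in 4OHT libraries and 1050, 1147 and 1158 CPM in vehicle libraries (-0.09). Rplp2 had 643, 754 and 745 CPM in 4OHT libraries and 654, 691 and 746 CPM in vehicle libraries (0.02). In all 3 genes the groups overlapped.

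No small subunit gene passed without the block. The 32 had a median log2 fold change of -0.04, and 20 were below 0, while the 49 large subunit genes had a median of -0.08, and 43 were below 0 (87.8%); the difference between the subunits was tested only through the ratio of their sums, given above. The small subunit median changed sign to 0.0184 with the length offset, 0.018 with that offset and the block, and 0.0236 without 4OHT replicate 1. Rps14 had 945, 1172 and 1242 CPM in 4OHT libraries and 1153, 1374 and 1297 CPM in vehicle libraries. Its groups overlapped but every same-numbered pair was lower in 4OHT, and the log2 fold change of -0.20 had an edgeR adjusted p of 0.109 without the block and 0.000168 with it. Rps12, the only other gene to rise with the block, had 778, 827 and 854 CPM in 4OHT libraries and 712, 752 and 808 CPM in vehicle libraries (a log2 difference of 0.11; edgeR adjusted p = 0.227 without the block and 0.0491 with it). Rpsa, the laminin receptor precursor that sits on the small subunit, had 952, 1077 and 1152 CPM in 4OHT libraries and 1012, 1103 and 1134 CPM in vehicle libraries (-0.03), with overlap. Rps28 and Rps15a had log2 fold changes of 0.07 and 0.06, and Rpl34 of the large subunit 0.08; none passed.

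**Figure D4:**
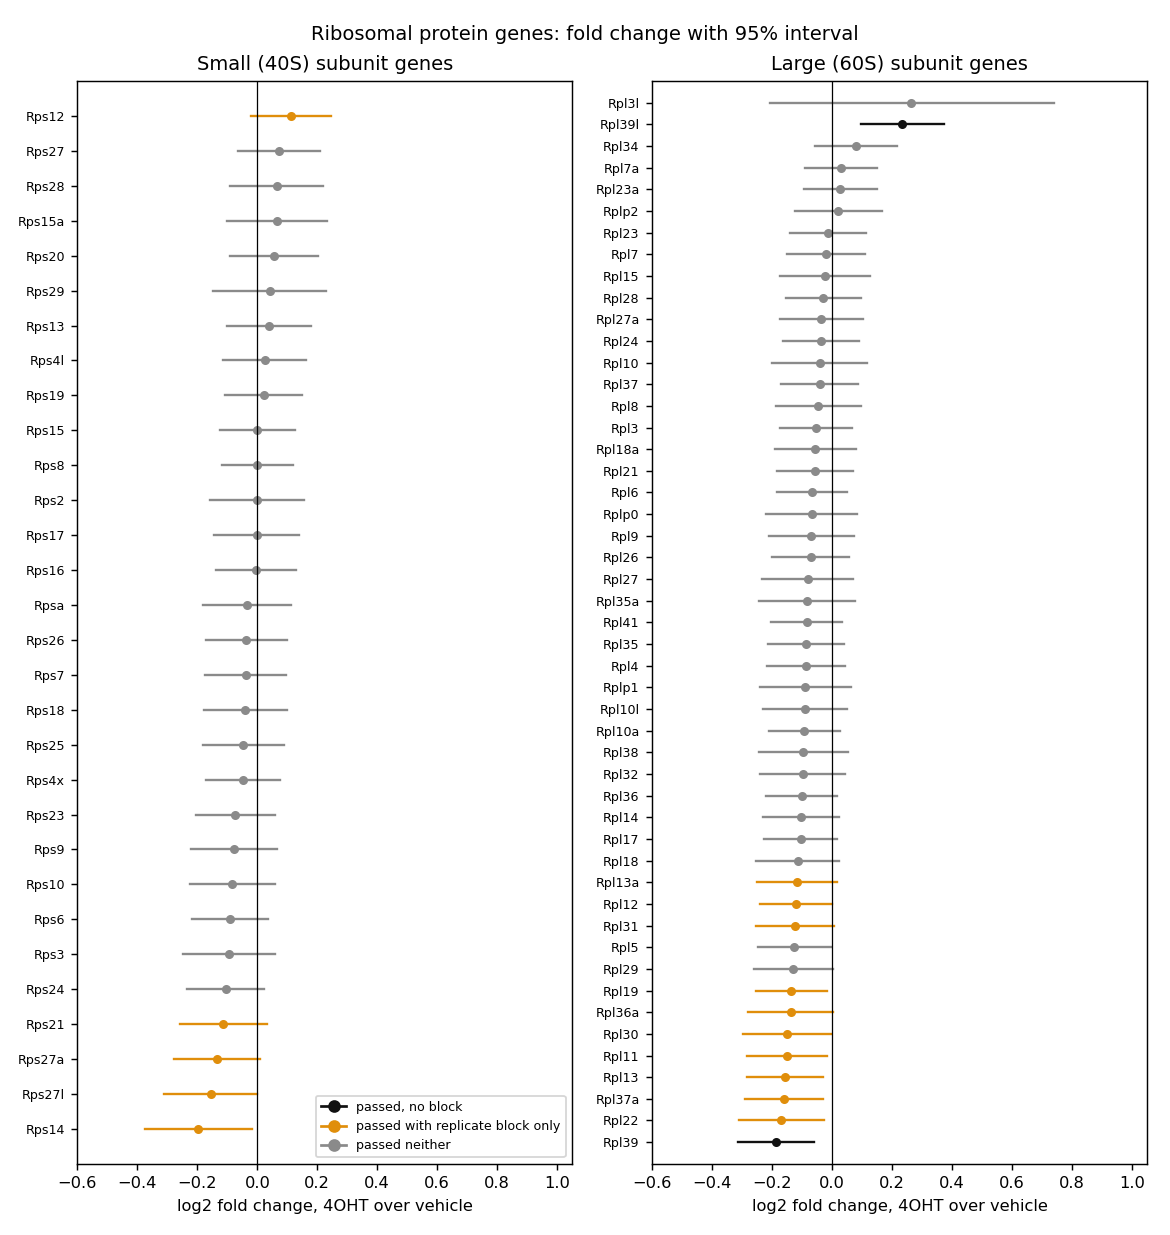
Points are the log2 fold change of 4OHT over vehicle for 79 of the 81 genes and lines the 95% interval of each; black genes passed without the replicate block, orange genes with the block only, and grey genes with neither. Rpl39l (0.24) and Rpl39 (-0.19) are the black genes, and 43 of the 49 large subunit genes lie below 0.

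Levels per kilobase of transcript (CPM per kb) varied widely. Among the genes for which no near-identical copy was found in the transcript set, Rpl8 was highest at 2735 CPM per kb in 4OHT and 2815 CPM per kb in vehicle. Rpl3l was lowest at 1.0 CPM per kb in 4OHT and 0.666 CPM per kb in vehicle. Rpl8 (log2 fold change -0.05) did not pass. Rps4l, also without a hit, has no annotated coding sequence there and was searched by its whole transcript. Of the 81 genes, 75 had at least 1 other gene's transcript of at least 95% identity over at least 50% of the coding sequence, up to 59 for Rpl21, so their counts may include reads of copies or miss reads that mapped to several places; how these were counted is not given in the sources used here. Rpl34 has a row for such a copy, Rpl34-ps1, with between 99.06% and 100% as many counts as Rpl34 itself.

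Ribosomal protein mRNAs are short, and the other short mRNAs also had a median below 0. The 81 genes had a median transcript length of 729 bases, against 2695 bases over all tested genes. Other tested genes with transcripts under 1000 bases (1389 genes) had a median log2 fold change of -0.06, with 60% below 0, and those of 1000 bases or more (12859 genes) a median of 0.00, with 49.4% below 0. Ribosomal protein genes under 1000 bases (62) had a median of -0.06 and those of 1000 bases or more (19) a median of -0.07, with 17 of the 19 below 0; this split was chosen after the values were seen. With an offset for the length trend of each library, the median of the 81 genes was -0.02, Rpl39l and Rps12 were called higher, none was called lower, and Rpl39 had an adjusted p of 0.0842.

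Sequence around the start sites was read from 72 RefSeq promoter windows of 60 of the 81 genes (GRCm38.p6, 250 bases before to 50 after the start; the counts were made on mm9). A run of at least 8 pyrimidines between 20 bases before and 30 after the start was present in 34 of the 72 windows (47.2%), against 19.0% of all 32851 windows. The ETS-type motif CCGGAAG, on either strand, was in 36.1% of the windows against 8.9% of all, the YY1 motif AAGATGGC in 9.7% against 2.7%, and TATAAA in 8.3% against 13.6%; a match is a description of the letters, not a site. The 30 bases from 20 before the start are shown for both genes that passed and for 4 genes with a long run nearby, with the longest pyrimidine run of the searched window in capitals. The runs of Rpl34, Rpl14 and Rpl28 cover the annotated start, while those of Rpl39, Rpl39l and Rpl4 lie wholly before it and so are not part of the annotated transcript.
Rpl39, chrX:37085213-37085242, strand -: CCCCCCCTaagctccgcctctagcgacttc
Rpl39l, chr16:10170208-10170237, strand +: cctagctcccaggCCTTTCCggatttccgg
Rpl34, chr3:130730328-130730357, strand -: ccgCCCCTTCCTTTTCCTCTTCCggggacg
Rpl4, chr9:64173367-64173396, strand +: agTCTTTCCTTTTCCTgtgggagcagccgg
Rpl14, chr9:120571497-120571526, strand +: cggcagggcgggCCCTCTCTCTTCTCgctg
Rpl28, chr7:4792945-4792974, strand +: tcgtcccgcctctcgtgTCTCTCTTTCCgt

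Rpl39 has a run of 8 and Rpl39l a run of 7 in the searched window. Rpl4, the gene with the most CPM of the 81, has a run of 14 and had 3362, 3127 and 2990 CPM in 4OHT libraries and 3480, 3266 and 3330 CPM in vehicle libraries. Its groups overlapped.

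Genes that work with the ribosomal proteins were described by lists, each to be read against the 11.9% of all tested genes called higher and 10.5% called lower (14.6% and 13.5% with the replicate block). Of 21 other TOP mRNAs, which encode elongation factors and similar proteins, 1 rose and none fell (median log2 fold change -0.01): the histone chaperone gene Nap1l1 had 1056, 1050 and 1141 CPM in 4OHT libraries and 861, 919 and 997 CPM in vehicle libraries (log2 fold change 0.23, edgeR adjusted p = 0.0141). In the blocked fit, 3 of the 21 rose and 1 fell. Of 15 regulators of TOP mRNAs 5 rose (33.3%) and none fell (median 0.09). Larp1, which binds the TOP tract, had 462, 454 and 442 CPM in 4OHT libraries and 379, 371 and 366 CPM in vehicle libraries (log2 fold change 0.28, edgeR adjusted p = 0.000849). Rps6ka1, a ribosomal S6 kinase of the RSK family, had 243, 248 and 269 CPM in 4OHT libraries and 196, 195 and 197 CPM in vehicle libraries (log2 fold change 0.38, edgeR adjusted p = 7.41e-05). Mtor itself (0.18), its inhibitor Tsc2 (0.18) and the cap-binding inhibitor gene Eif4ebp2 (0.19) also rose, so the list holds activators and inhibitors alike. In all 5 genes every 4OHT library was above every vehicle library, as in 14.7% of all tested genes. The 5 were called from the same libraries, so this separation adds no support to the calls. With the block 6 of the 15 rose and 1 fell.

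Of 14 RNA polymerase I genes, which serve the transcription of rRNA, 4 rose (28.6%, against 11.9% of all tested genes) and none fell (median -0.02). Rrn3, the initiation factor, had 552, 559 and 594 CPM in 4OHT libraries and 461, 487 and 507 CPM in vehicle libraries (log2 fold change 0.23, edgeR adjusted p = 0.00747), and Polr1b, Taf1b and Polr1a rose by 0.22, 0.22 and 0.17 on the log2 scale. Of 24 genes of pre-rRNA processing 1 fell (Utp3, -0.18), and of 16 genes of 40S assembly and 31 of 60S assembly none passed. With the block, 1 rose and 4 fell in pre-rRNA processing, and 1 gene rose in each assembly list. Of 10 host genes of snoRNAs, whose spliced RNAs include TOP transcripts, 3 fell (30%, against 10.5% of all tested genes) and none rose (median -0.16). Gas5 had 112, 87.8 and 75.2 CPM in 4OHT libraries and 132, 114 and 118 CPM in vehicle libraries (log2 fold change -0.37, edgeR adjusted p = 0.0146), without overlap. Snhg8 and Snhg6 fell by 0.39 and 0.25 on the log2 scale, and with the block 4 of the 10 fell. Of 77 mitochondrial ribosomal protein genes, which build a different ribosome, 1 rose (Mrpl16, 0.20) and 6 fell, among them Mrpl12 (-0.23), Mrpl36 (-0.25) and Mrpl24 (-0.21), which is 1.3% higher and 7.79% lower, and the median was -0.05. With the block 2 of the 77 rose and 10 fell.

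Of 31 initiation and elongation factors 2 rose and 1 fell (median 0.02). Eif2s2, a subunit of the factor that brings the initiator tRNA, had 929, 771 and 887 CPM in 4OHT libraries and 545, 545 and 538 CPM in vehicle libraries, a log2 fold change of 0.69 (edgeR adjusted p = 8.17e-08). Eif4g3, a scaffold of the cap-binding complex, rose by 0.63 and Eif1ax fell by 0.20 on the log2 scale; with the block 5 rose and 1 fell. Of 5 ribosomal protein relatives outside the name rule 1 fell, Rpl7l1, with 281, 283 and 284 CPM in 4OHT libraries and 318, 323 and 314 CPM in vehicle libraries (log2 fold change -0.17, edgeR adjusted p = 0.034), and with the block 1 rose and 2 fell.

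**Figure D5:**
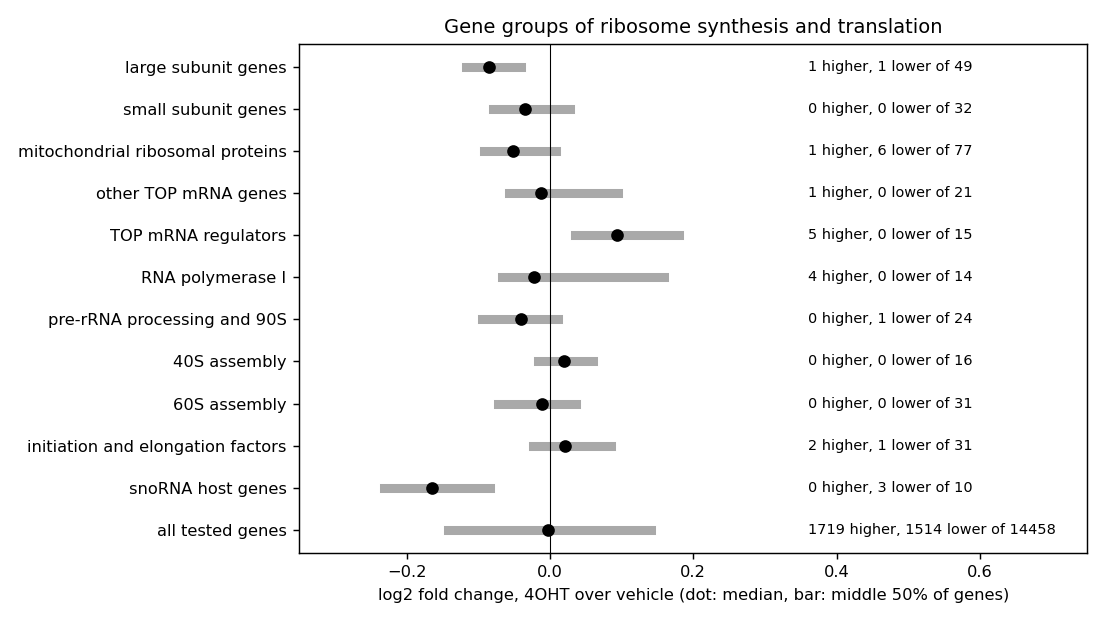
Dots are the median log2 fold change of 4OHT over vehicle in each gene group and bars the middle 50% of its genes, with the counts of genes called higher and lower at the right. The ribosomal protein medians are -0.08 for the large and -0.04 for the small subunit, beside 0.09 for the TOP mRNA regulators and -0.16 for the snoRNA host genes.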

How the data were processed

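PolyA RNA was extracted with Trizol and an RNeasy kit and made into libraries with NEBNext Ultra, per the labels' protocols. STAR and DESeq on mm9 were used per the submitters' processing notes; versions, strandedness and how multiply mapped reads were treated could not be read from the labels. The authors deposited whole-number read counts per gene, not normalized. Genes were kept by filterByExpr (minimum count 10), scaled by TMM and tested with the quasi-likelihood test of edgeR 4.0.16 (R 4.3.3), with Benjamini-Hochberg adjustment over 14458 genes and a threshold of 0.05. CPM values use TMM. Shares and ratios were tested by exact permutation. Copies were searched with blastn 2.17.0+ in GENCODE transcripts. Tried alternatives were DESeq2 1.42.0, limma 3.58.1 (voom), other scalings and filters, a length offset, a replicate block and each library left out. The replicate numbers come from the labels, which do not say what they mark. Deviations of same-numbered libraries correlated at 0.57, 0.15 and 0.39 over 3632 genes, but 4OHT replicate 3 correlated more (0.45) with vehicle replicate 2. These correlations come from the same counts that the blocked fit tests, so whether the numbers mark pairs is not known. The main fit and the permutation tests used no pairs, and the replicate block is an alternative only. Precision is limited by 4OHT replicate 2, with 515388 counts.

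The genes and lists were chosen with earlier results of these data known. Genes named were up to 8 with the smallest adjusted p in each direction, the stalk genes and Rpsa, paralogues with their partners, extremes of CPM per kb without copies, those next to the threshold, and up to 4 per list; Rpl4, Rpl21, Rpl14, Rpl28 and Eif4ebp2 were added after their values were seen. Some genes of the set are counted but not reported here by name. The test was run on simulated counts, 10 draws per setting. P-values of unchanged genes were close to uniform at 0.05. With few changed genes and gene-specific spread, the share of false calls exceeded the threshold, less so without the shallow library, and with about as many changed genes as were called here it did not.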

Additional observations from a re-analysis of the deposited data

How the results depend on the processing

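Across all genes, 3233 calls became 944 with DESeq2 and 2093 with limma-voom after quantile normalization. Of the 81 ribosomal protein genes, 1 was called higher and 1 lower. DESeq2 called 0 higher and 0 lower, voom 0 higher and 12 lower, no low-count filter 1 higher and 3 lower, the length offset 2 higher and 0 lower, the length offset with the replicate block 6 higher and 4 lower, and the replicate block alone 2 higher and 15 lower. The block without 4OHT replicate 2, added after seeing the data, called 1 higher and 8 lower. Leaving out 1 library gave 0 to 3 higher and 0 to 14 lower (14 without 4OHT replicate 3, 6 without vehicle replicate 1, 4 without 4OHT replicate 1, 0 without vehicle replicate 2 or 3) and a median between -0.11 and -0.0024 (without 4OHT replicate 1). Among the genes with no copy found, 1 was higher and 0 lower; their share of 0.445% to 0.522% in 4OHT and 0.487% to 0.523% in vehicle differed by -0.0155 percentage points. The share of all 81 differed by -0.362 to -0.105 with 1 library left out. The large subunit median was -0.0332 with the length offset, -0.0338 with that offset and the block, and -0.11 to -0.0249 with 1 library left out (-0.0249 without 4OHT replicate 1). Where not shown by fewer libraries or genes, the cause was not tested. No called result changed sign. The small subunit median of -0.04 did, at 0.0184 with the length offset, 0.018 with that offset and the block, and 0.0236 without 4OHT replicate 1, and so did some single genes that were not called. The shallow library limits genes of few reads such as Rpl3l.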
